A study of Mus musculus with 6 samples.

Results

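The transcripts described here are those of the CIS and SOCS feedback inhibitors of cytokine signalling, Cish and Socs1 to Socs7. They were chosen by gene symbol, and all 8 members of the family were among the 14490 genes of the expression table and passed the filter on low values. NK cells sorted from mouse spleen were profiled by poly(A) mRNA-seq in 3 WT and 3 cKO samples, all on a C57BL/6 background, and the study's methods give mice of 6 to 10 weeks. Both groups carried the floxed Mettl3 alleles: the WT samples were Mettl3fl/fl without Cre, and the cKO samples were Ncr1Cre-Mettl3fl/fl, in which 1 Ncr1 allele carries Cre (Ncr1Cre/+ in the study's methods) and Cre acts in cells that express NKp46. The labels do not say that each sample came from a separate mouse, so the p-values measure the spread between these samples, part of which may be technical.

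CIS and the SOCS proteins share an SH2 domain, which binds phosphotyrosine, and a SOCS box, which binds elongins B and C and recruits a cullin E3 ubiquitin ligase. Cytokine receptors activate JAK kinases and STAT transcription factors, STATs induce Cish and several Socs genes, and the encoded proteins then bind the receptor or the JAK and damp the signal. In NK cells CIS is known as a checkpoint of IL-15 signalling, and SOCS1 and SOCS3 are the members that can block JAK activity directly. METTL3 is the catalytic subunit of the complex that writes N6-methyladenosine (m6A) on mRNA, a mark known among other roles for promoting mRNA decay.

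The induction of the family by STATs is read in promoters through sites of the form TTCNNNGAA. Promoter windows from 250 bases before to 50 bases after the annotated start were taken from a table of RefSeq promoters (GRCm38.p6) and matched for 4 of the 8 genes, Cish, Socs1, Socs3 and Socs4. The other windows were not analysed here. The windows of Cish and Socs3 contained this motif, and the stretches around it are shown, 5′ to 3′ on the gene's strand, with the motif letters in capitals.
Cish: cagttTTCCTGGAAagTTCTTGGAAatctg
Socs3: gaaaccagccTTCTTAGAAgggagggggg
The Cish stretch lies at chr9:107296654-107296683 on the plus strand, inside the 5′ UTR exon of the longest Cish transcript (Cish-201) and upstream of Cish-204. It holds 2 copies of the motif, whose first bases are at positions 1 and 12 counted from the RefSeq start. The Socs3 stretch lies at chr11:117969502-117969530 on the minus strand, upstream of the main transcript Socs3-201 and in an intron of Socs3-202. The motif is the same on both strands. Among 12584 windows of the listed genes, 6.97% held at least 1 copy and 0.397% held 2 or more. The windows of Socs1 and Socs4 held no TTCNNNGAA, and none of the 4 windows held the form with 4 bases between TTC and GAA, found in 5.57% of windows. These matches describe the letters of the windows only.

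Mettl3 itself was lower in every cKO sample, at 297, 299 and 405 normalized counts against 1303, 1258 and 1192 in WT. Its log2 fold change, cKO over WT, was −1.92 ± 0.0986 (SE, n = 3 per genotype, limma, adjusted p = 2.32e-14). Ncr1, the gene that carries the Cre, went from 22394 ± 286 to 16918 ± 230 normalized counts (SD, n = 3, log2 fold change −0.40, limma adjusted p = 3.56e-11). Between 55965515 and 71464042 reads per sample fell on the listed genes. With these values 36.6% of all genes passed an adjusted p under 0.05, 17.8% of all genes as higher in cKO and 18.8% as lower. In bulk RNA, fewer cells that express a transcript and less of it per cell cannot be told apart.

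The family split between the genotypes. Of the 8 transcripts, 3 rose in cKO (Socs1, Socs2 and Socs3) and 3 fell (Socs5, Socs6 and Socs7), while Cish and Socs4 did not pass the test. The share called, 6 of 8, stands against the 36.6% called among all genes, many of them lower in expression than the members. When only the 11817 genes with at least 1 CPM in at least 3 samples were fitted, 5302 genes were called. The median log2 fold change of the family was 0.06, beside 0.00 over all genes tested. In 7 of the 8 transcripts the WT and cKO samples did not overlap, a pattern seen in 45.7% of all genes. A fold of at least 1.5 together with an adjusted p under 0.05 was reached by 1 member, Socs2, and by 5.13% of all genes. The cut-offs in the study's methods are an unadjusted p under 0.05 with a log2 fold change beyond 1 in size. The study set them on DESeq2 results. Applied here to the limma values, they called 0 members and 1.75% of all genes.

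**Figure D1:**
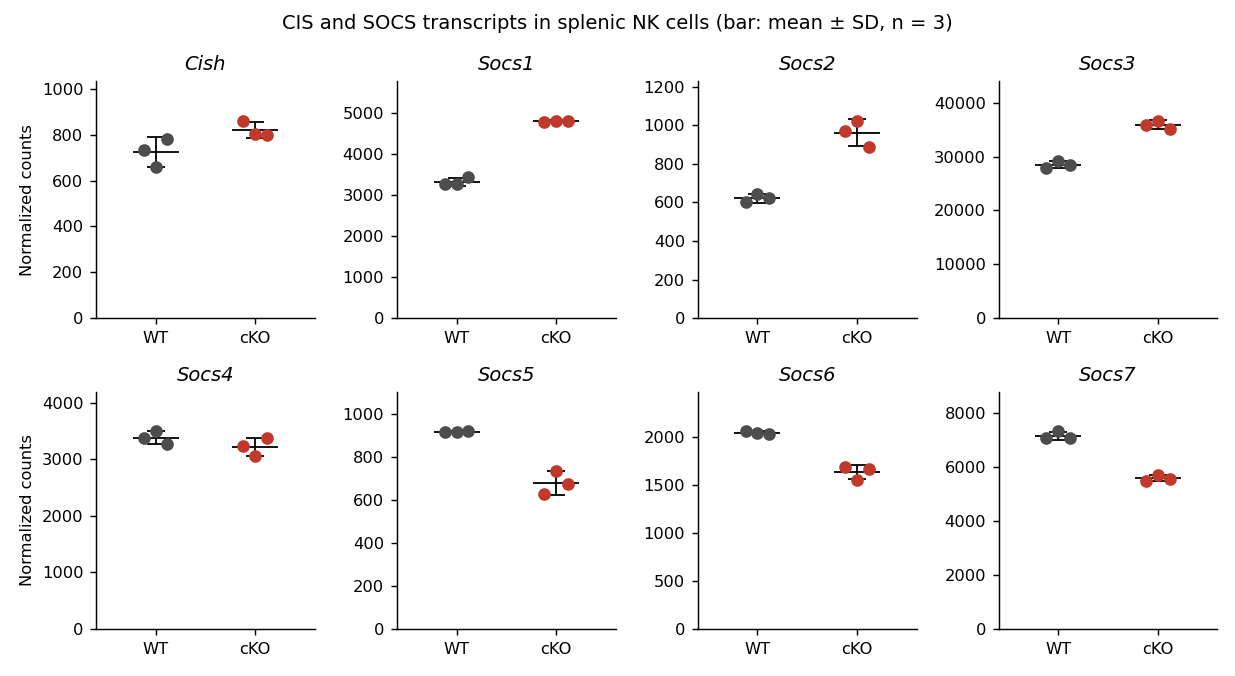
Each panel plots the normalized counts of 1 transcript on its own axis, with a point for each of the 3 WT and 3 cKO samples and a bar for the mean and SD. The cKO samples of Socs1, Socs2 and Socs3 sit above all WT samples, those of Socs5, Socs6 and Socs7 sit below them, and those of Socs4 overlap with WT.

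The inhibitors best known for acting on receptors of immune cytokines are CIS, SOCS1, SOCS2 and SOCS3. Socs1, whose product binds JAKs and blocks their catalytic site, had 3279, 3265 and 3444 normalized counts in the WT samples and 4784, 4817 and 4815 in the cKO samples. All 3 cKO samples were above all WT samples and lay within a narrow range. The SD of the cKO samples was 0.388% of their mean, where counting error alone was 1.91% at the lowest read number of Socs1. Its mean rose by 44.4%, from 3329 ± 99.7 to 4805 ± 18.6 (SD, n = 3), with a log2 fold change of 0.53 (95% interval 0.45 to 0.61, limma adjusted p = 4.94e-11).

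Socs2, which encodes the inhibitor known for limiting growth hormone signalling, had 600, 646 and 621 normalized counts in WT and 972, 1024 and 887 in cKO. The lowest cKO sample was well above the highest WT sample. This was the highest fold in the family, a rise of 54.2% from 622 ± 23.1 to 961 ± 69.2 (SD, n = 3), with a log2 fold change of 0.62 (95% interval 0.47 to 0.78, limma adjusted p = 3.14e-07).

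Socs3 encodes the inhibitor of gp130 receptors, which transmit IL-6 family signals, and it also blocks JAKs. It had 27848, 29202 and 28497 normalized counts in WT and 35949, 36680 and 35027 in cKO. The groups were again apart, and the mean rose by 25.8%, from 28516 ± 677 to 35885 ± 828 (SD, n = 3), a log2 fold change of 0.33 (95% interval 0.27 to 0.39, limma adjusted p = 1.98e-09). The relative rise of Socs3 was below those of Socs1 and Socs2, and in normalized counts it was the greatest of the family.

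Cish had 733, 657 and 783 normalized counts in WT and 861, 804 and 797 in cKO. Every cKO sample was above every WT sample, but the lowest cKO and the highest WT values were close, and the WT samples were the most scattered of any member relative to their mean. The mean was 724 ± 63.4 in WT and 821 ± 35.01 in cKO (SD, n = 3), a difference of 13.6% and a log2 difference of 0.18 with a 95% interval from 0.02 to 0.35. The test across all genes did not call it (limma, unadjusted p = 0.0278, adjusted p = 0.0705), and it was called after scaling the samples to equal totals (0.23, limma adjusted p = 0.0229). Without WT replicate 3 it was also called, at 0.24 (limma adjusted p = 0.0303), and without WT replicate 2 the log2 difference was 0.12 (limma adjusted p = 0.306). The Cish exons are overlapped on the opposite strand by the antisense gene Gm17041 over 479 bases and by the pseudogene Gm17040 over 261 bases. The table lists neither gene, and whether counting used strand is not given in the sources used here.

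The other 4 members are known mainly from work on receptor tyrosine kinases and insulin signalling. Socs4, whose product is linked to the EGF receptor, had 3378, 3493 and 3262 normalized counts in WT and 3226, 3052 and 3375 in cKO. The groups overlapped. Its mean was 3378 ± 115 in WT and 3218 ± 162 in cKO (SD, n = 3), and the 95% interval of the log2 difference ran from −0.16 to 0.02 (limma adjusted p = 0.242).

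Socs5, the close relative of Socs4, whose product also acts on the EGF receptor and is linked to IL-4 signalling, had 918, 914 and 919 normalized counts in WT and 625, 736 and 676 in cKO. The WT samples were nearly equal, with an SD of 0.314% of their mean, where counting error alone was 4.03% at the lowest read number of this gene. Every cKO sample was lower. The mean fell by 26.1%, from 917 ± 2.87 to 679 ± 55.5 (SD, n = 3), a log2 fold change of −0.44 (95% interval −0.59 to −0.28, limma adjusted p = 4.94e-05). This was the deepest relative fall in the family.

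Socs6, which encodes an inhibitor of the receptor tyrosine kinase KIT, had 2057, 2039 and 2024 normalized counts in WT and 1690, 1549 and 1663 in cKO. Its cKO samples were all lower, and the mean fell by 19.9%, from 2040 ± 16.3 to 1634 ± 74.6 (SD, n = 3), a log2 fold change of −0.32 (95% interval −0.43 to −0.21, limma adjusted p = 2.01e-05). Socs7, whose product binds NCK adaptors and insulin receptor substrates, had 7060, 7311 and 7047 normalized counts in WT and 5463, 5682 and 5553 in cKO. The groups were clearly apart, and the mean fell by 22.03%, from 7139 ± 149 to 5566 ± 110 (SD, n = 3), a log2 fold change of −0.36 (95% interval −0.43 to −0.29, limma adjusted p = 1.03e-08).

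**Figure D2:**
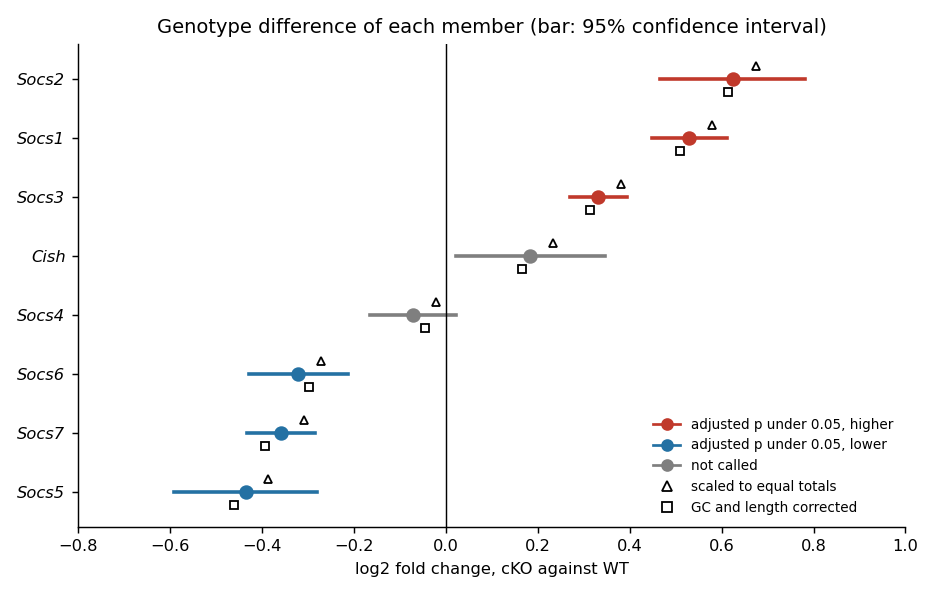
Log2 fold change of each transcript, cKO over WT (horizontal axis), with its 95% interval from limma, and open symbols for the values after scaling to equal totals (triangles) and after correction for GC content and length (squares). The intervals of Socs1, Socs2 and Socs3 lie above those of Socs5, Socs6 and Socs7, while Cish lies close above 0 and the interval of Socs4 spans 0.

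The exact two-sided permutation test over the 6 samples gave p = 0.1 for the 7 transcripts whose groups did not overlap, the smallest value that 3 against 3 samples allow, and p = 0.2 for Socs4. Among the 14 alternative settings, that without the filter repeated the main fit, since the filter removed no gene. In each of the 14 settings the 6 called members were called in the same direction. Their log2 fold changes ranged from 0.51 to 0.58 for Socs1, 0.58 to 0.68 for Socs2, 0.31 to 0.38 for Socs3, −0.50 to −0.38 for Socs5, −0.35 to −0.27 for Socs6 and −0.39 to −0.31 for Socs7. Scaling to equal totals moved the median of all genes by 0.05, and 3487 genes were then called higher and 2016 lower, where the deposited scaling gave 2576 and 2731. In that scaling 4 members were called higher, Cish among them, and 3 lower.

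Levels can be set against each other only per length. Length-scaled levels in TPM, a unit in which all genes of a sample share one fixed total, were computed here from the normalized counts and the longest coding transcript of each of 14073 matched genes. They put Socs3 first in WT by a wide margin, at 373 ± 6.57 (SD, n = 3), higher than 97.1% of those genes. Socs1 followed at 38.3 ± 1.52 TPM and Socs7 at 34.0 ± 0.333 TPM. The WT samples of Socs1 (37.0 to 40.0 TPM) and of Socs7 (33.7 to 34.4 TPM) did not overlap.

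Lower in the order were Socs4 at 16.4 ± 0.375 TPM, Socs6 at 11.3 ± 0.140 TPM, Socs2 at 9.36 ± 0.278 TPM, Cish at 8.50 ± 0.841 TPM and Socs5 at 6.59 ± 0.0979 TPM. Socs2 and Cish could not be ordered in WT, since the highest Cish sample (9.27 TPM) lay among the Socs2 samples (9.05 to 9.59 TPM). With the union of all annotated exons as the length, the first 5 places stood, and Socs2 moved from place 6 to place 8 at 3.12 TPM, so its place rests on the transcript assumed.

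In cKO the level of Socs2 was 15.2 ± 0.805 TPM, beside 9.503 ± 0.575 TPM for Socs6 and 10.1 ± 0.440 TPM for Cish. With the union of exons as the length this order turned, with Socs2 at 5.03 TPM, Socs6 at 7.19 TPM and Cish at 6.38 TPM in cKO. Of the TPM of all members summed within a sample, Socs3 made up 75.0% ± 0.371 in WT and 77.6% ± 0.339 in cKO (SD, n = 3). Socs1 went from 7.69% to 9.13% of the sum, and Socs7 from 6.83% to 4.38%. The Cish share was 1.71% ± 0.168 in WT and 1.59% ± 0.0694 in cKO.

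**Figure D3:**
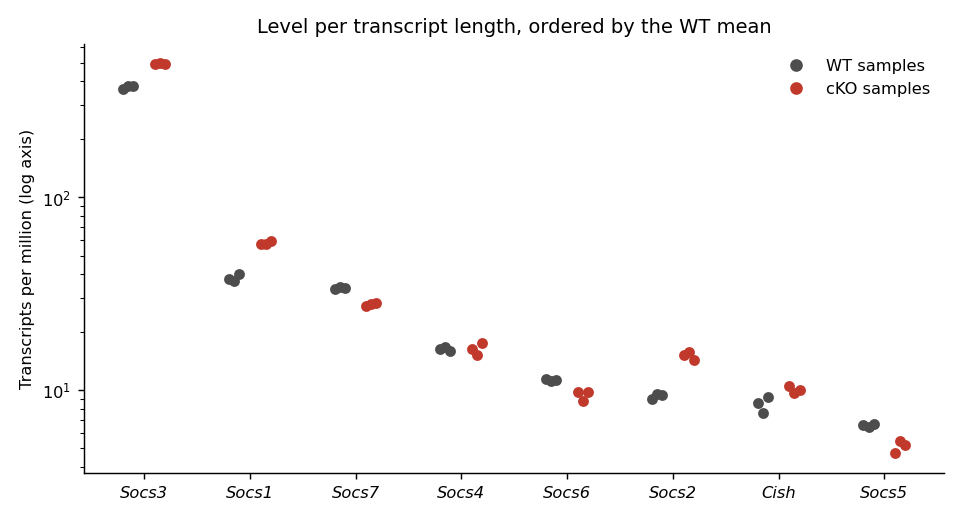
Length-scaled level in TPM of each member on a log axis, ordered by the WT mean, with a point per sample. Socs3 stands well above the rest, and 1 WT sample of Cish lies among those of Socs2. In cKO, Socs2 lies above Cish for the longest coding transcript plotted here, and this order turns with the union of exons.

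Ratios of 2 transcripts within a sample do not depend on how samples were scaled. Relative to Cish, the cKO samples had more Socs1 and Socs2: the log2 ratio of their normalized counts changed by 0.35 for Socs1 and by 0.44 for Socs2, with no overlap of the genotypes. Relative to Cish they had less Socs5 (−0.62), Socs6 (−0.50) and Socs7 (−0.54), also without overlap. The ratios of Socs3 and Socs4 to Cish changed by 0.15 and −0.25, and their groups overlapped (exact permutation p = 0.3 and 0.2).

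Among the rising members, the ratio of Socs1 to Socs2 changed by −0.09 with overlapping groups (exact permutation p = 0.2), while Socs1 gained 0.20 and Socs2 gained 0.29 on Socs3 without overlap. Among the falling members, the log2 ratio of Socs5 to Socs6 changed by −0.12, Socs5 to Socs7 by −0.08 and Socs6 to Socs7 by 0.04, and in each case the genotypes overlapped (exact permutation p = 0.4, 0.2 and 0.5). Between the rising and the falling members the ratios changed by 0.65 (Socs3 to Socs6) up to 1.06 (Socs2 to Socs5). That these ratios separate the genotypes follows from the members' own separation and is given as a description.

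**Figure D4:**
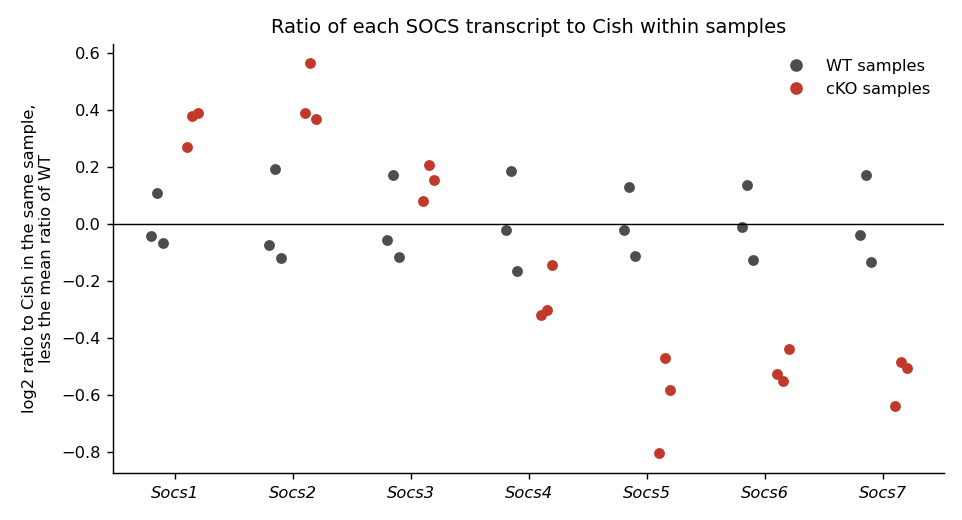
Log2 ratio of each Socs transcript to Cish within the same sample, less the mean ratio of the WT samples, with a point per sample. Socs1 and Socs2 lie higher relative to Cish in cKO, Socs5, Socs6 and Socs7 lie lower, and the groups of Socs3 and Socs4 overlap with WT.

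The member genes lie at separate places in the genome. In GRCm38, Socs3 (chr11:117966079-117970047, minus strand) and Socs7 (chr11:97362551-97398542, plus strand) were the only pair on one chromosome, and they moved in opposite directions. Cish is at chr9:107296026-107302784, Socs1 at chr16:10782240-10785536 and Socs2 at chr10:95385362-95417180. Socs4 is at chr14:47276931-47296102, Socs5 at chr17:87107679-87137839 and Socs6 at chr18:88665224-88927481.

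The 3 rising members had shorter mRNAs than the 3 falling ones, at 2908, 2222 and 2552 bases for Socs1, Socs2 and Socs3 and 4648, 6036 and 7015 bases for Socs5, Socs6 and Socs7 (longest coding transcript). This order rests on the transcript taken for Socs2, whose annotated exons together span 9531 bases, against 6416 for Socs5 and 7265 for Socs7. Cish, at 2850 bases, was in the range of the rising members, and Socs4 was long, at 6877 bases. With GC content and length of all genes taken out of the log2 fold changes, the 6 called members remained called, with values from 0.31 (Socs3) to 0.61 (Socs2) and from −0.46 (Socs5) to −0.30 (Socs6).

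The sequence GGACT, the commonest core of m6A sites, was counted in the longest coding transcripts on the sense strand, as was the AU-rich element core ATTTA, a letter pattern linked to mRNA decay. Socs1, which rose, held 1 GGACT and no ATTTA. Socs2 and Socs3 held 1.35 and 1.18 GGACT per kb, above the median of 1.05 over 11794 coding genes, and Cish had 1.40 per kb. Of the falling members, Socs7 had 1.28 per kb and Socs5 and Socs6 had 0.861 and 0.663 per kb. Socs4 had 0.291 GGACT per kb and 20 copies of ATTTA, 2.91 per kb, more than 96.4% of coding genes. Per kb, neither pattern ordered the called members by their direction. As plain counts both did, in longest coding transcripts that were also longer for the falling members. Socs1, Socs2 and Socs3 held 1, 3 and 3 GGACT and 0, 2 and 4 ATTTA. Socs5, Socs6 and Socs7 held 4, 4 and 9 GGACT and 5, 10 and 5 ATTTA. The part of either pattern in the fold changes was not tested, and a letter match does not show that a site was methylated.

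The SOCS box works through partner proteins that form the E3 ligase, and on the deposited values none of their transcripts was called higher. Of 10 partners in the table, 5 fell and 5 were not called, with a median log2 fold change of −0.08 against 0.00 over all genes. Among all genes, 17.8% were called higher and 18.8% lower. The counts of this and each later list are to be read beside those shares, and no list was tested as a set. Elob and Eloc, which encode the elongins that the SOCS box binds, had log2 fold changes of −0.19 and −0.13 (limma adjusted p = 0.000216 and 0.0161). Rbx1, a RING subunit of cullin ligases, fell from 2659 ± 47.6 to 2173 ± 208 normalized counts (SD, n = 3, limma adjusted p = 0.000122). The NEDD8-conjugating enzyme Ube2m and the ligase Arih2, which works with cullin complexes, also fell (−0.29 and −0.17). Rnf7 and Ube2f, on the same list, were not called (log2 fold changes −0.03 and 0.007, limma adjusted p = 0.667 and 0.935). Cul5, the cullin preferred by the family, was at 1382 ± 105 normalized counts in WT and 1507 ± 38.4 in cKO and was not called (limma adjusted p = 0.105). Scaled to equal totals, Cul5 was called higher (0.18, limma adjusted p = 0.0239), and the Eloc difference no longer passed (limma adjusted p = 0.122). The same held after correction for GC content and length (Cul5 0.15, limma adjusted p = 0.0441; Eloc, adjusted p = 0.138).

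JAKs and STATs, which the inhibitors restrain and which induce them, moved in both directions. Of 11 genes, 3 rose, 3 fell and 5 were not called, beside 36.6% called among all genes. Jak1, Jak2 and Stat2 rose by 0.12, 0.13 and 0.12 on the log2 scale (limma adjusted p = 0.00136, 0.00288 and 0.0451). The Stat2 samples of the genotypes overlapped, and after correction for GC content and length Stat2 was not called (0.09, limma adjusted p = 0.114). With that correction the list had 2 genes called higher and 4 lower, so the number called lower changed as well. Stat3, which acts downstream of gp130 and induces Socs3, fell from 35295 ± 1859 to 27544 ± 926 normalized counts (SD, n = 3, log2 fold change −0.36, limma adjusted p = 7.44e-09). Stat5a and Tyk2 had log2 fold changes of −0.22 and −0.20 (limma adjusted p = 0.000342 and 6.6e-06).

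Among 21 cytokine receptor chains on which the family acts, 3 rose and 9 fell, with a median of −0.10. The shares of all genes were 17.8% and 18.8%. Il7r, the IL-7 receptor chain, rose from 710 ± 22.2 to 1016 ± 16.7 normalized counts (SD, n = 3), and Il2rb, the shared beta chain for IL-2 and IL-15, rose by 0.14 on the log2 scale. Il6st, which encodes gp130, fell from 1003 ± 50.6 to 649 ± 39.3 normalized counts (SD, n = 3, log2 fold change −0.63, limma adjusted p = 2.02e-07), and Il2ra, the alpha chain of the IL-2 receptor, had a log2 fold change of −0.73.

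Inhibitors of the same pathway outside the family, a list of 14 genes for phosphatases, PIAS proteins, ubiquitin ligases, an adaptor, a protease and a repressor, were mostly lower or not called, with 1 higher, 8 lower and a median of −0.12 (2 higher and 7 lower with equal totals, 2 and 9 after correction for GC content and length). Phosphatases on this list can also have activating roles. Pias3, an inhibitor of STAT3, rose by 0.17 on the log2 scale. The largest falls were those of Bcl6, a repressor that competes with STATs for DNA sites (−0.57, limma adjusted p = 1.43e-11), and Ptpn2, a phosphatase of JAKs and STATs (−0.31, limma adjusted p = 1.78e-07).

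**Figure D5:**
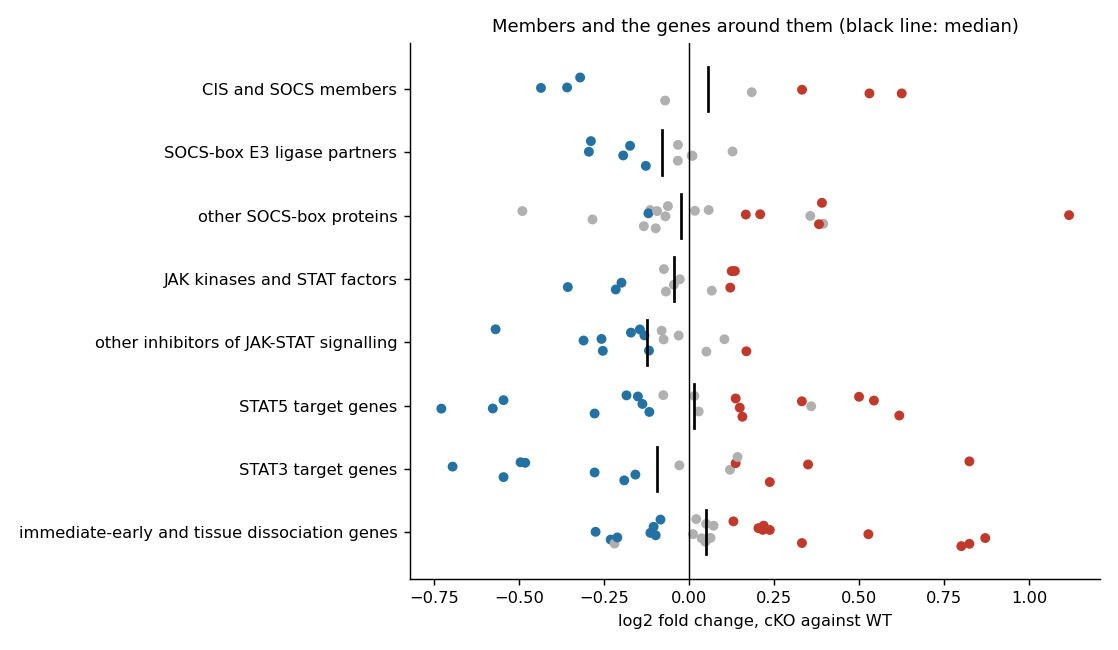
Log2 fold change, cKO over WT (horizontal axis), of the genes of each list shown, with a point per gene (red, called higher; blue, called lower; grey, not called) and a black line at the list's median. The E3 ligase partners have 0 red and 5 blue points, the JAK and STAT list has 3 and 3, and the inhibitors outside the family have 1 and 8.

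Cish, Socs1, Socs2 and Socs3 are inducible, and transcripts that respond within minutes to stress or tissue dissociation moved as well. Of 25 such genes, 10 rose and 7 fell (14 and 3 with equal totals), with Fos and Hspa1a rising (log2 fold changes 0.82 and 0.87) and Btg2 and Fosb falling (−0.28 and −0.23). Summed over the list, the samples ranged from 4027486 to 4102932 normalized counts in WT and from 4186763 to 4313903 in cKO. The part of this in the Socs values was not tested.

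Markers of the sorted cells were abundant, with 1053754 to 1090460 normalized counts summed over 15 NK markers in WT and 996040 to 1042977 in cKO, of which 2 rose and 8 fell (4 and 6 with equal totals). Ncr1, of which 1 allele carries Cre in cKO, is among the NK markers that fell. B cell markers were higher in cKO in 10 of 13 genes, none fell, and their sum ranged from 10020 to 10875 in WT and from 11660 to 12244 in cKO. Cd79a, a chain of the B cell receptor complex, stood at 201 ± 32.4 normalized counts in WT and at 334 ± 56.7 in cKO (SD, n = 3). T cell markers rose in 0 and fell in 3 of 11 genes, or in 2 and 2 with equal totals (sums of 22228 to 23694 and 20578 to 21746). Myeloid markers rose in 5 and fell in 1 of 8 genes (48608 to 51579 and 51628 to 53282). Of 9 ILC1 markers 1 rose and 1 fell (5373 to 5642 and 5538 to 5790). The ILC1-list gene that fell was Cd3g, which is also counted among the falling T cell markers. Of 7 erythroid and platelet markers none was called (1009 to 1102 and 883 to 1018). For comparison, 17.8% of all genes were called higher and 18.8% lower. No marker in the table was at 0. The part of these cells in the member values was not tested.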

How the data were processed

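Reads were aligned to GRCm38 with HISAT2, counted per gene with featureCounts 1.5.0-p3 and compared with DESeq2 1.16.1, per the labels; the paper's methods give other versions of HISAT2 and DESeq2. The values the authors deposited for each sample are a signal, gene counts divided by the DESeq2 size factor (normalized counts). The annotation, the filter on genes and the strand setting are not given in the sources used here. The deposited table also holds the log2 fold change of the authors' own comparison, its error, their test statistic as a score and their p-value before and after adjustment; none was used.

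Normalized counts were analysed on the log2 scale after adding 1. A gene had to reach 1 in 3 or more samples, and all did. The genotype effect was estimated with limma 3.58.1 (R 4.3.3), using a variance trend and two-sided tests. The p-values were adjusted over all 14490 genes by the Benjamini-Hochberg method, and a call is an adjusted p under 0.05. Fold changes on this scale understate changes of low genes. Intervals are at the 95% level from limma's moderated standard errors. An exact permutation test used all 20 ways to split the samples. Counts for low members were at least 543 reads per sample, recovered from the steps between values; this covers listed genes only. No count test was run, although the design allowed for one. No adjusted p over pairs of members is given.

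Positions, lengths and motif counts are from GENCODE M21 on GRCm38, in which 14073 listed genes matched by symbol. The text names every member, Mettl3, and from each gene list at most 2 genes with the highest and 2 with the lowest fold changes among those called with a mean of at least 1 CPM; any JAK, STAT or E3 ligase partner and the defining markers of other cells could also be named. The members and lists were chosen with earlier results of these data known. The pipeline was tested on simulated data. Samples of a genotype differed by more than counting noise. Some results are not reported here, and other assays of the study were not analysed.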

Additional observations from a re-analysis of the deposited data

How the results depend on the processing

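Across the 14 alternative settings no member changed direction, and Socs1, Socs2, Socs3, Socs5, Socs6 and Socs7 stayed called while Socs4 stayed uncalled. The setting without the filter could not differ from the main fit, since every gene passed the filter. Cish was the exception: its log2 fold change was 0.18 with the deposited scaling and not called, and it was called at 0.23 with samples scaled to equal totals and at 0.21 with upper-quartile scaling, an alternative chosen after seeing the data. Leaving out each sample in turn gave Cish values from 0.12 (without WT replicate 2) to 0.24 (without WT replicate 3, called). The number of members called was 6 by the adjusted p (36.6% of all genes) and 1 when a fold of at least 1.5 was also asked (5.13%). It was 0 by the cut-offs of the study's methods, applied to the limma values (1.75%). Deviations of same-numbered samples correlated at −0.0242, 0.116 and 0.0439, and those of differently numbered samples at −0.102 to 0.062. With 3 samples per genotype these values cannot settle whether the replicate numbers pair the samples. With the replicate block 6 members and 5543 genes were called, against 5307 without it. The edgeR and DESeq2 tests on counts and the TMM scaling were not run. At 552 reads, the lowest for Cish, counting error alone is 4.26%, against a spread of 8.76% between its WT samples.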

Other observations

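The targets of the STATs that the family restrains were mixed, where 17.8% of all genes were called higher and 18.8% lower. Of 19 STAT5 targets 7 rose and 8 fell, with Lif and Osm, cytokines of the IL-6 family, higher (log2 fold changes 0.62 and 0.54, limma adjusted p = 0.00181 and 3.31e-11) and Tnfrsf9, which encodes the costimulatory receptor 4-1BB, lower (−0.58). Of 14 STAT3 targets 4 rose and 7 fell, with Cebpb at 0.35, where the samples of the genotypes overlapped, and Bcl3 at −0.70. Some lists share genes, Il2ra and Fos among them.

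Of 18 other proteins with a SOCS box in the table, 5 rose, 1 fell and 12 were not called. This is close to the 36.6% called among all genes. Spsb2, which targets inducible nitric oxide synthase, went from 348 ± 34.9 to 753 ± 14.9 normalized counts (SD, n = 3, log2 fold change 1.12, limma adjusted p = 4.16e-10). Asb2 was higher (0.39) and Wsb1 lower (−0.12).

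Over the 6 samples and 11752 genes with a mean of at least 1 CPM, the profile most like that of Cish was that of Cdc45 (Pearson r = 0.997), followed by Gpr55 (0.991) and Map3k1 (0.985). For Socs1 they were St7l, Zcchc2 and Wdr91 (0.9998, 0.9991 and 0.9988), and for Socs2 Twf2, Rbm15b and Lax1 (0.999, 0.999 and 0.998). Rbm15b was also the nearest to Socs3 (0.999). With 3 samples per genotype these correlations follow mainly the genotype difference and are descriptions only.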
